A study of Homo sapiens with 2 samples.

Results

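Amino acids cross the membranes of liver cells through several families of solute carriers (SLC), and 6 of them are described here in Huh7 cells, an established line from a human hepatocellular carcinoma. The genes were chosen by symbol, as every entry of the families SLC1A, SLC3A, SLC7A, SLC36A, SLC38A and SLC43A in both libraries. The rule itself uses no measured value, but the families were picked with earlier results of these data known. The choice gave 40 of 25343 gene entries. Pseudogene and antisense entries with related names are not among the 40.

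The study kept Huh7 cells for 6 days in high glucose medium (4.5 g/L) or low glucose medium (0.45 g/L), starting from 500000 cells per well, and sequenced RNA from each. Cells in both media came from the same line, were grown in DMEM with serum before the media were changed, and were passaged when nearly confluent, with only live cells carried over. Each medium is represented by 1 library, so no spread between cultures can be measured and no p-value is given. A cell line is a single tumour's lineage in culture and lacks the other cells of the liver. In RNA from whole cultures, fewer cells of a kind and less RNA per cell cannot be told apart.

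Members of these families work as importers, as exchangers that trade one amino acid for another, or as passive carriers. SLC7 exchangers of the heteromeric kind are light chains that need a glycoprotein heavy chain of the SLC3 family, linked by a disulfide bond, to reach the membrane. When amino acids run short or the endoplasmic reticulum is stressed, phosphorylation of eIF2alpha favours translation of ATF4, a transcription factor that binds C/EBP-ATF response elements and is known to drive several of these transporter genes. NRF2, the factor of the oxidative stress response, binds antioxidant response elements and is known to act on the cystine importer SLC7A11.

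The values are TPM, shares of all transcripts corrected for transcript length that sum to 1000000 in each library, so levels of different genes can be set side by side. Of the 40 genes, 29 had a mean of at least 1 TPM over both libraries and were compared, as were 13745 genes in all. Each difference is log2(TPM + 1) with low glucose minus the same value with high glucose, a scale that understates the differences of genes with low levels. A gene met the 2-fold rule at 1 or more, or at -1 or less. No read numbers accompany the values, so the depth is unknown. Where a pair of TPM values is given for a gene, high glucose comes first, and a number in brackets after it is the log2 difference.

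The cells carried the hepatocyte and hepatoma markers in both media, led by AFP at 20859 TPM with high glucose and 16441 TPM with low glucose. None of the 8 markers met the 2-fold rule, but TTR, at 1351 and 682 TPM (-0.99), was just short of it. Of the 8, 2 lay above 0 and 6 below, and the median was -0.33. The lowest level was that of HNF4A, at 211 and 154 TPM. Defining markers of other liver cells were low but not at 0 in either medium. The summed level was 21.3 and 39.8 TPM for 3 leukocyte markers, of which CD68, also made in other cells, held 20.4 and 39.3 TPM. It was 11.3 and 15.8 TPM for 3 fibroblast and stellate markers and 2.14 and 2.19 TPM for 3 endothelial markers. Of these 9, PTPRC, CD3E, CDH5 and VWF lay below the level compared. Among the rest, COL1A1, at 1.06 and 4.03 TPM, was the only one to meet the 2-fold rule. The part of cells with such markers in the transporter results was not tested.

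Transporter transcripts took a larger share of the RNA in low glucose. Their summed level was 1613 TPM with high glucose and 4656 TPM with low glucose, a ratio of 2.89. By the 2-fold rule, 8 of the 29 genes were higher in low glucose (27.6%), where 3.65% of all genes compared met that rule. Another 2 were at least 2-fold lower (6.90%), where 1.1% of all genes were. The median difference was 0.56 for the transporters and 0.05 for all genes, and 23 of 29 transporters (79.3%) lay above 0, against 54.6% of all genes. The same line and the same pair of libraries stand behind every value, so these counts describe 2 libraries.

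**Figure D1:**
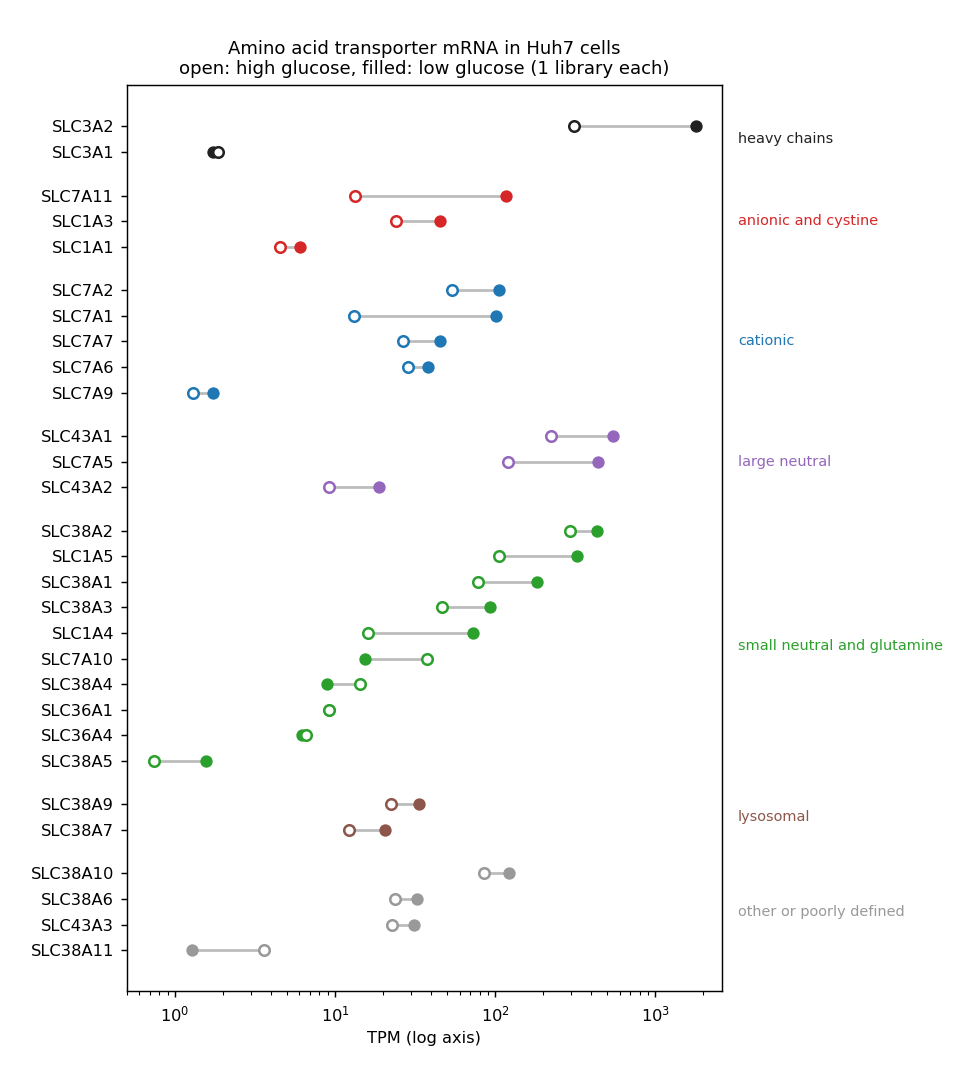
TPM on a log axis of the 29 transporter genes compared, by substrate class, with open circles for the high glucose library and filled circles for the low glucose library (1 library each). The longest lines belong to SLC7A11, SLC7A1 and SLC3A2, all with the filled circle to the right, and SLC7A10 and SLC38A11 have it to the left. For SLC36A1 both circles coincide.

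Short stretches of DNA near the starts of these genes are shown first. In 5 of the genes at least 2-fold higher, they hold a match to a short pattern with a variable base. RefSeq windows of 300 bases (250 before and 50 from each annotated start; build GRCh38.p14) were matched by symbol for 31 of the 40 genes, with 53 windows. SLC1A2, SLC38A3, SLC3A1, SLC43A3, SLC7A11, SLC7A13, SLC7A2, SLC7A3 and SLC7A4 had none. The C/EBP-ATF response element was searched as TGATGNAA (N being any base) on both strands. Of the 7 genes at least 2-fold higher that had a window, 5 held a match. Each match stands in capitals within 30 bases of the gene's own strand, 5′ to 3′.
SLC7A1, chr13:29595663-29595692, minus strand: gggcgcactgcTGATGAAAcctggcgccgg
SLC3A2, chr11:62881719-62881748, plus strand: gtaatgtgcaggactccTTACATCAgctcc
SLC1A4, chr2:64989381-64989410, plus strand: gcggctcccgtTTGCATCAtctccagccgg
SLC1A5, chr19:46784893-46784922, minus strand: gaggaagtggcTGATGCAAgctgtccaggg
SLC38A1, chr12:46266502-46266531, minus strand: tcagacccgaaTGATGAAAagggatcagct

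In SLC3A2 and SLC1A4 the element lies on the opposite strand and appears as its complement. Counting the annotated start of its window as 1, the match ran from 8 to 15 in SLC7A1 and from 38 to 45 in SLC3A2. It ran from -7 to 1 in SLC1A4 and from -4 to 4 in SLC38A1. SLC7A1 has 1 window, SLC1A4 and SLC38A1 have 2 each and SLC3A2 has 3, of which 1 per gene held the match. In SLC1A5 the match lay at -97 to -90 of 1 of 3 annotated starts. By window, 5 of 14 in the higher transporter genes held a match. The other 2 genes of the 7, SLC7A5 and SLC43A1, held no match in their windows. Among the 15 transporter genes within 2-fold that had a window, 1 held a match, SLC1A3, at -220 to -213 of 1 of its 3 starts:
SLC1A3, chr5:36596357-36596386, plus strand: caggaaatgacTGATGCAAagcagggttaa

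Neither of the 2 genes that were at least 2-fold lower, SLC7A10 and SLC38A11, held a match, nor did any of the 7 genes below the level compared that had a window. Of all 35116 windows of this length in the table, 3.62% held the element. Among genes with a window and at the level compared, 276 of 9918 (2.78%) held it in at least 1 window, and among those at least 2-fold higher 28 of 335 (8.36%) did, the 5 transporters included. Genes with more annotated starts have more windows to match, and the genes shown have 1 to 3 each. A match is a run of letters and does not show that a factor was bound.

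The core of the antioxidant response element was searched as TGACNNNGC on both strands. It was found in 4 of the 7 genes at least 2-fold higher, in 3 of the 15 within 2-fold (SLC1A3, SLC7A6 and SLC7A7), in 1932 of 9918 genes compared (19.5%), and in 65 of the 335 genes at least 2-fold higher (19.4%). The SLC3A2 and SLC7A5 matches, shown for the heavy chain and its most abundant light chain, lay at -37 to -29 and at -2 to 7.
SLC3A2, chr11:62881652-62881681, plus strand: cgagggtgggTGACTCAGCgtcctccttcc
SLC7A5, chr16:87869490-87869519, minus strand: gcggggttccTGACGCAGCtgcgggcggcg

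In SLC3A2 this match and the C/EBP-ATF element belong to the same annotated start. SLC7A1 (-85 to -77) and SLC1A5 (-111 to -103, at another of its starts) held the remaining matches. No match overlapped one of the other kind.

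SLC3A2 encodes the heavy chain 4F2hc (CD98), which carries the light chains of several exchangers and also binds integrins. Its entry (hg19, chromosome 11, 62623484 to 62656355) went from 311 TPM with high glucose to 1795 TPM with low glucose (2.53). It was the most abundant of the 40 genes in both media. Its gain was 48.8% of the net gain of all 40, and without the heavy chains the summed level still stood at 1300 TPM with high glucose and 2859 TPM with low glucose, a ratio of 2.20. SLC3A1, the heavy chain of the cystine and dibasic amino acid exchanger of kidney and gut, stood at 1.86 and 1.73 TPM, and its light chain SLC7A9 at 1.29 and 1.73 TPM. The strand setting of the counting is not given in the sources used here, and the SLC3A1 interval shares 3215 bases with PREPL (23.0 and 23.9 TPM).

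The light chains that pair with SLC3A2 did not move as one. Their summed level was 227 TPM with high glucose and 653 TPM with low glucose, a ratio of 2.87, and the heavy chain's transcript went from 1.37 to 2.75 times that sum. SLC7A5 (LAT1) made up 53.3% of the light chain transcripts in high and 66.9% in low glucose. SLC7A11 (xCT) made up 5.91% and 18.0%, and SLC7A10 (asc-1) 16.5% and 2.36%. These are transcripts, and the number of assembled transporters was not measured.

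**Figure D2:**
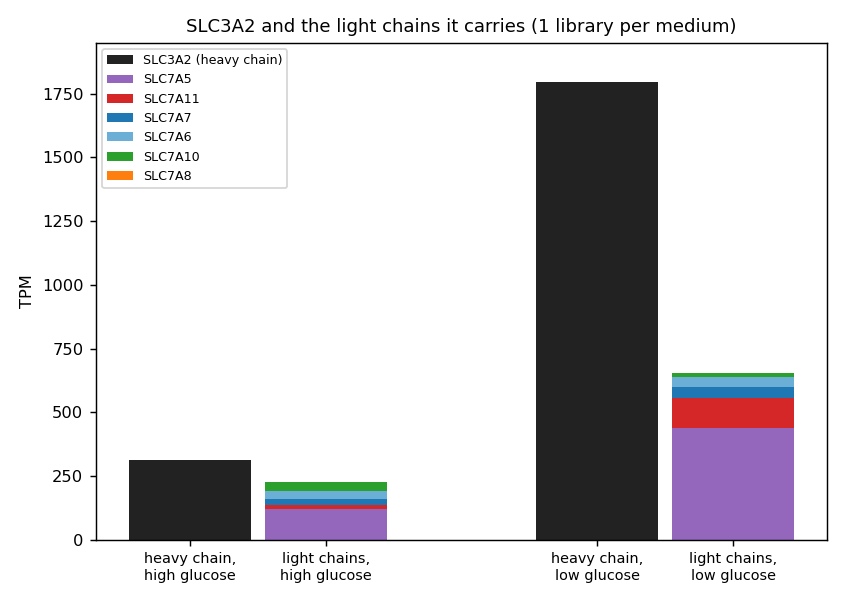
TPM of the heavy chain SLC3A2 (black) beside the stacked TPM of its 6 light chains, in high glucose and low glucose (1 library each). The heavy chain bar goes from 311 to 1795 and the light chain stack from 227 to 653, with SLC7A5 the largest segment in both.

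SLC7A11, which imports cystine in exchange for glutamate and so feeds glutathione synthesis, had the largest difference of the 29 genes. Its entry (chromosome 4, 139085248 to 139163503) went from 13.4 TPM with high glucose to 118 TPM with low glucose. The log2 difference of 3.04 ranked 12 among 13745 genes from the highest. The antisense entry SLC7A11-AS1, which shares 14084 bases of the interval, stood at 0.23 and 0.37 TPM. The sodium-coupled glutamate and aspartate importers of the SLC1 family differed less. SLC1A3 (EAAT1) stood at 24.0 and 45.3 TPM (0.89) and SLC1A1 (EAAT3) at 4.51 and 6.01 TPM (0.35). The transporters SLC1A2, SLC1A6, SLC1A7 and SLC7A13 lay below the level compared, with SLC1A2 at 0.01 and 0.05 TPM. SLC1A2 (EAAT2) is known as the main glutamate importer of astrocytes. The summed level of this anionic and cystine class was 42.6 TPM with high glucose and 169 TPM with low glucose, a ratio of 3.98.

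Among carriers of cationic amino acids, SLC7A1 stood apart from the others. SLC7A1 (CAT1, chromosome 13, 30083551 to 30169825), the widely expressed importer of arginine and lysine, went from 13.2 to 101 TPM. Its log2 difference of 2.85 ranked 15 among all genes compared. SLC7A2 (CAT2), the arginine importer that is typical of liver, stood at 53.8 and 105 TPM (0.95), short of the rule. With high glucose its level was 4.09 times that of SLC7A1, and with low glucose 1.04 times. The exchangers SLC7A7 and SLC7A6, light chains that export cationic in return for neutral amino acids with sodium, stood at 26.5 and 45.1 TPM (0.74) and at 28.7 and 37.97 TPM (0.39). SLC7A6 shares 1209 bases with SLC7A6OS, which stood at 25.3 and 23.5 TPM. The relatives SLC7A3, SLC7A4 and SLC7A14 lay below the level compared, SLC7A3 at 0 in both media.

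All 3 carriers of large neutral amino acids that could be compared were higher, and 2 of them met the 2-fold rule. Of all genes compared, 54.6% lay above 0 and 3.65% were at least 2-fold higher. SLC7A5 (chromosome 16, 87863629 to 87903100), which brings in leucine and other essential amino acids in exchange for glutamine, stood at 121 and 437 TPM (1.84). The pseudogene entries SLC7A5P1 (3.01 and 7.17 TPM) and SLC7A5P2 (7.25 and 21.8 TPM) resemble it in sequence, and RSEM divides reads between such copies. Their sum with SLC7A5 stood at 131 and 466 TPM (1.82). SLC43A1 (LAT3, chromosome 11, 57252004 to 57283192), a passive carrier of leucine and its relatives that needs no heavy chain, stood at 223 and 548 TPM (1.30). Its relative SLC43A2 (LAT4) stood at 9.17 and 18.7 TPM (0.96), short of the rule on this scale, with a plain TPM ratio of 2.04. SLC7A8 (LAT2) stood at 0.16 and 0.07 TPM. In high glucose SLC43A1 was the most abundant carrier of this class, with 1.84 times the level of SLC7A5, and it was also the most abundant in low glucose, with 1.26 times.

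Carriers of small neutral amino acids and glutamine went both ways. SLC1A4 (ASCT1, chromosome 2, 65215579 to 65251000), an exchanger of alanine, serine, cysteine and threonine, stood at 16.1 and 72.3 TPM (2.10). SLC1A5 (ASCT2, chromosome 19, 47278140 to 47291842), which exchanges these and glutamine, stood at 106 and 326 TPM (1.61). SLC38A1 (SNAT1, chromosome 12, 46576840 to 46663208), a sodium-coupled importer of glutamine and alanine, stood at 78.7 and 183 TPM (1.21). The TPM ratios of low over high glucose were 4.50 for SLC1A4, 3.07 for SLC1A5 and 2.33 for SLC38A1.

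The other SLC38 carriers in the class of small neutral amino acids and glutamine did not meet the 2-fold rule. SLC38A2 (SNAT2), known as a gene that amino acid shortage induces, was the most abundant of the class at 294 TPM in high glucose and 435 TPM in low glucose (0.56). SLC38A3 (SNAT3), the glutamine carrier of the hepatocyte that works in both directions, stood at 46.4 and 93.0 TPM. Its log2 difference of 0.99 was just short of the rule, and the plain TPM ratio was 2.00. SLC38A4 (SNAT4), an importer found mainly in liver, stood at 14.4 and 8.90 TPM (-0.64). SLC38A5 (SNAT5) stood at 0.74 and 1.56 TPM (0.56), with a plain TPM ratio of 2.11 at this low level.

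SLC7A10, the light chain for small neutral amino acids including D-serine, had the largest difference towards high glucose on the log2(TPM + 1) scale. Its entry (chromosome 19, 33699570 to 33716756) went from 37.4 TPM with high glucose to 15.4 TPM with low glucose (-1.23). It shares 204 bases with LRP3, which stood at 77.3 and 70.6 TPM. SLC38A11, a carrier of poorly known substrate, stood at 3.59 and 1.27 TPM (-1.02) and met the rule by a small margin. By the plain TPM ratio of high over low glucose the order turned, with 2.83 for SLC38A11 and 2.43 for SLC7A10. The SLC38A11 call was lost with a pseudocount of 5, where the difference was -0.45. The carriers SLC36A1 (9.21 and 9.12 TPM) and SLC36A4 (6.55 and 6.19 TPM), found on lysosomes and other membranes, were nearly level. No member of the SLC36 family met the rule, and SLC36A2 and SLC36A3 lay below the level compared.

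The lysosomal carriers differed by less than 2-fold. SLC38A9, which reports lysosomal arginine to mTORC1 (the kinase complex that couples growth to nutrients), stood at 22.3 and 33.5 TPM (0.56). SLC38A7, which exports glutamine and asparagine from lysosomes, stood at 12.25 and 20.6 TPM (0.71). Among members of poorly defined or other substrate, SLC38A10 stood at 84.8 and 123 TPM (0.53), SLC38A6 at 23.9 and 32.7 TPM (0.44) and SLC43A3, a carrier of purine nucleobases, at 22.8 and 31.3 TPM (0.44). All 5 of these lay above 0, as did 54.6% of all genes compared, and inside the 2-fold lines.

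In all, 11 of the 40 genes were below the level compared, 5 of them (SLC1A6, SLC36A3, SLC38A8, SLC7A13 and SLC7A3) at 0 in both libraries. The remaining 6 lay between 0.01 and 0.98 TPM. Just inside the 2-fold rule stood SLC38A11 (-1.02), and just outside it SLC38A3 (0.99), SLC43A2 (0.96) and SLC7A2 (0.95). The next closest calls inside the rule were SLC38A1 (1.21) and SLC7A10 (-1.23).

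**Figure D3:**
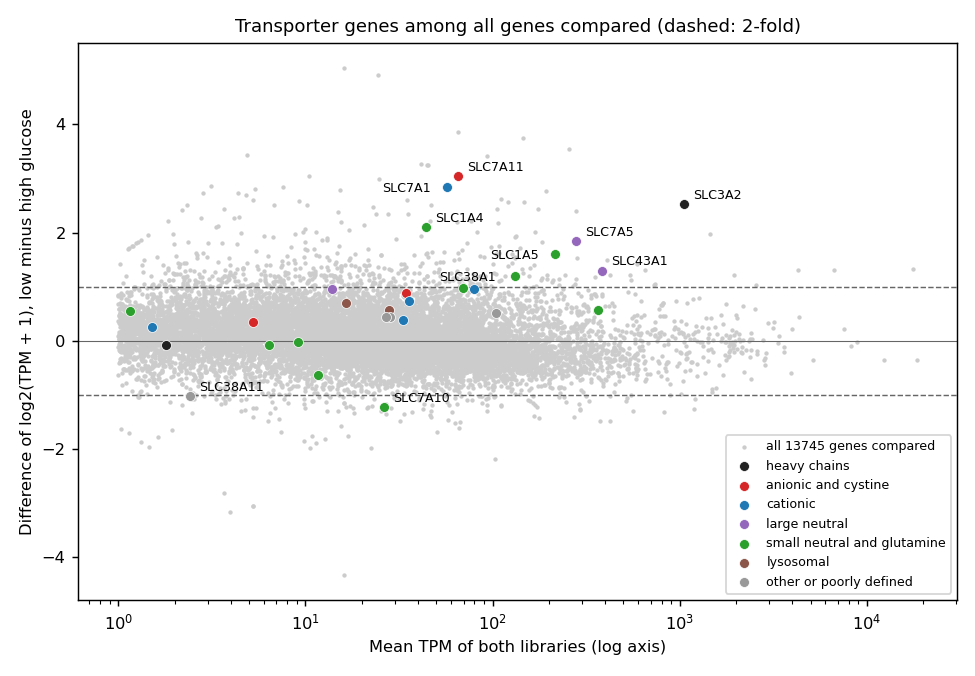
Difference of log2(TPM + 1) between low and high glucose (low minus high) against the mean TPM (log axis) for all 13745 genes compared (grey) and the 29 transporter genes (coloured by class); dashed lines mark 2-fold. The 8 transporters above the upper line all have a mean level of 44.2 TPM or more, and SLC3A2 lies far to the right of most genes with a difference as large.

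By family, the members compared had median differences of 1.25 in SLC1 (4 genes), 0.96 in SLC43 (3 genes), 0.85 in SLC7 (8 genes), 0.56 in SLC38 (10 genes) and -0.04 in SLC36 (2 genes). The 2 SLC3 genes stood at 2.53 and -0.07. The same 5 genes were the most abundant in both media: SLC3A2, SLC43A1, SLC7A5, SLC38A2 and SLC1A5. Together they held 65.4% of the summed transporter TPM with high glucose and 76.1% with low glucose. In high glucose SLC38A2 was next to SLC3A2, and in low glucose SLC43A1 and SLC7A5 stood above it.

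Other transporters of amino acids and peptides did not show this pattern as a list. Of 21 genes outside the 6 families, 11 could be compared, with 1 higher (9.09%), 1 lower (9.09%) and a median of 0.01. The shares of all genes compared were 3.65% and 1.1%. SLC6A9, the glycine importer GlyT1, stood at 12.1 and 38.5 TPM (1.60). SLC16A10, a passive carrier of aromatic amino acids, stood at 16.1 and 7.39 TPM (-1.03). The taurine importer SLC6A6 (44.4 and 42.0 TPM), the neutral amino acid importer SLC6A19 (30.3 and 29.98 TPM) and the lysosomal exporter PQLC2 (23.45 and 31.2 TPM) had the highest mean levels and lay within 2-fold. The difference between this list and the 6 families was not tested.

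Genes that sense amino acids for mTORC1 lay mostly within 2-fold. Of 29 compared, 3 were at least 2-fold higher (10.3%), none was lower and the median was -0.01. Of all genes compared, 3.65% were higher and 1.1% lower. RRAGC, at 12.1 and 25.1 TPM (0.99), was just short of the rule. The 3 were SESN2, a leucine sensor that is also a stress-induced gene (13.3 and 80.3 TPM, 2.50), FLCN, which acts on the Rag GTPases (29.2 and 74.5 TPM, 1.32), and its partner FNIP1 (11.4 and 24.6 TPM, 1.05). SEC13 (315 and 238 TPM), LAMTOR4 (138 and 123 TPM) and LAMTOR5 (109 and 82.9 TPM) had the highest mean levels.

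The list of the amino acid response was picked with earlier results of these data known. Of its 9 genes, 6 were at least 2-fold higher (66.7%), none was lower, and the median was 2.40. Among all genes compared, 3.65% were higher and 1.1% lower, and the median was 0.05. The transcript of ATF4 itself, which is controlled largely through translation, stood at 658 and 904 TPM (0.46). EIF2AK4 (GCN2), the kinase that senses uncharged tRNA, stood at 12.6 and 11.1 TPM (-0.17). ATF5 lay at 44.2 and 27.5 TPM (-0.67). The higher genes were CHAC1, ATF3, TRIB3, DDIT3, ASNS and CEBPB, with differences from 1.08 for CEBPB to 3.85 for CHAC1. The 8 transporters that met the rule towards low glucose lay within that range, from 1.21 to 3.04. Both groups were kept by the same rule, so this overlap follows largely from that choice. A shared cause was not tested.

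Of 4 partner and stabiliser genes, CD44, a surface receptor that stabilises the SLC7A11 protein, met the 2-fold rule with 4.40 and 10.8 TPM (1.13). That is 25% of a very short list, where 3.65% of all genes compared were higher. BSG (981 and 1093 TPM) and ITGB1 (475 and 641 TPM), which associate with SLC3A2 at the membrane, lay within 2-fold. So did TMEM27 (2.87 and 2.25 TPM), which brings SLC6A19 to the surface in kidney.

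**Figure D4:**
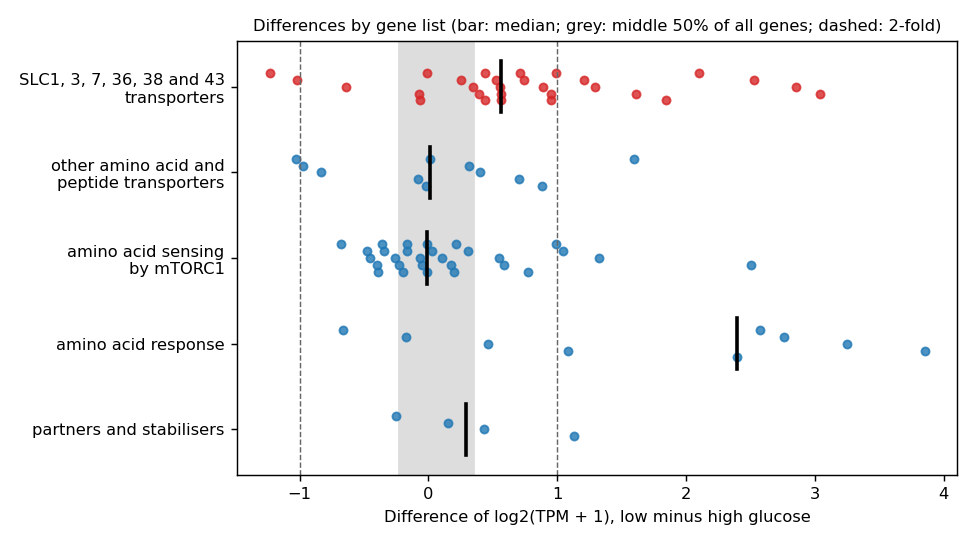
Difference of log2(TPM + 1) between low and high glucose (low minus high) for each gene compared in the 6 transporter families (red) and 4 lists of related genes (blue), with black bars at the medians, a grey band for the middle 50% of all genes and dashed lines at 2-fold. The transporter median (0.56) lies right of the grey band, the medians of the other transporters (0.01) and of the mTORC1 list (-0.01) lie inside it, and the amino acid response has its median at 2.40.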

How the data were processed

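RNA from 2 libraries of Huh7 cells, 1 per medium, was compared. The deposited values are TPM per gene with 2 decimals, named as such per the file headers. Per the submitters' processing notes, cutadapt, RSEM 1.2.21 (which divides reads that map to several genes) and hg19 were used. For the aligner, the annotation, filters and the strand setting, no statement is given in the sources used here. Intervals are the authors' hg19 coordinates, and promoter windows are RefSeq's on GRCh38.p14.

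The members, the substrate classes and the lists were chosen with earlier results of these data known. Beside the 4 partner genes given, 1 further gene fixed for that list is not reported here. Each of the 40 genes with a mean of at least 1 TPM was named with both values. Differences used a pseudocount of 1 TPM. The calls were checked on simulated data with changes larger than the rule, in genes well above the lowest level compared. That check used a scaling that the main calls do not use. It does not cover genes at low levels, calls near the rule or the real spread between cultures. The precision of single values could not be computed, because the depth is unknown. Alternatives were 4 scalings, pseudocounts of 0.1 and 5, other filters and thresholds, and 2 choices made after seeing the data. Python 3.11.15, pandas 2.3.3 and numpy 2.4.6 were used.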

Additional observations from a re-analysis of the deposited data

How the results depend on the processing

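No paired analysis was possible because each medium has 1 library. Leaving out a replicate was not possible for the same reason. The 8 transporter genes at least 2-fold higher became 9 without the 50 most abundant genes in the total, 10 with a pseudocount of 0.1, 14 at 1.5-fold and 6 at 3-fold. The 2 lower became 1 without the 50 most abundant genes, 1 with a pseudocount of 5, 1 at a mean of at least 10 TPM, 0 at 3-fold and 3 at 1.5-fold. The median difference of 0.56 became 0.50 with median-of-ratios scaling, 0.53 with upper-quartile scaling, 0.50 with trimmed-mean scaling and 0.59 without the 50 most abundant genes. It became 0.75 with a pseudocount of 0.1, 0.53 with no filter (35 genes) and 0.92 at a mean of at least 10 TPM (22 genes). Chosen after the data were seen, subtracting the median of genes of similar level (20 groups) gave 10 higher and a median of 0.65. Leaving out 4 genes whose intervals overlap another entry above 0 TPM gave 7 higher, 1 lower and a median of 0.71. SLC38A3 met the rule under 3 of these settings (1.0008 to 1.09), SLC43A2 under 1 (1.02) and SLC7A2 under 1 (1.06). SLC38A11 lost it under 2, at -0.9994 without the 50 most abundant genes and at -0.45 with a pseudocount of 5. The cause was not tested. The 8 calls towards low glucose and that of SLC7A10 held under each scaling and pseudocount run.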

Other observations

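Some of these genes lie in the same stretch of a chromosome and had unlike differences. On chromosome 12 (hg19), SLC38A1, SLC38A2 and SLC38A4 lie between positions 46576840 and 47219780, with log2 differences of 1.21, 0.56 and -0.64. On chromosome 11, SLC43A3 and SLC43A1 lie between 57174427 and 57283192, at 0.44 and 1.30. On chromosome 19, SLC7A9 and SLC7A10 lie between 33321419 and 33716756, at 0.25 and -1.23. On chromosome 5, SLC36A1 stood at 9.21 and 9.12 TPM, while SLC36A2 and SLC36A3, which precede it, lay below the level compared.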
